A study of Mus musculus with 4 samples.

Results

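The genes described are 10 core members of the NRF2 antioxidant response: *Nfe2l2*, *Keap1*, *Nqo1*, *Hmox1*, *Slc7a11*, *Gclc*, *Gclm*, *Gsta4*, *Txnrd1* and *Srxn1*. They were taken by symbol, and all 10 were found among the 21436 protein-coding genes with a known strand in a RefSeq gene table of the mouse genome build GRCm38.p6. The data are bulk ATAC-seq, which marks the stretches of chromatin that the Tn5 transposase can enter, of mouse salivary gland organoids (mSGOs). The labels give 4 non-irradiated samples from the submandibular gland of C57BL/6 mice, 2 of passage 1 and 2 of passage 2, and within each passage 1 mouse is described as 12 weeks and 1 as 3 months old. All were grown in Matrigel in a Wnt3a- and R-spondin1-rich medium that also held EGF, FGF2, insulin, dexamethasone and the kinase inhibitor Y27632. The authors deposited 1 list of open regions without a value for any sample. Passages, ages and replicates could therefore not be compared, the depth of each sample is unknown, and every value below describes that list. How many of the samples stand behind it is not known.

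NRF2, the product of *Nfe2l2*, is a transcription factor that pairs with small MAF proteins and binds antioxidant response elements in its target genes. KEAP1 holds NRF2 in the cytoplasm and hands it to the CUL3 ubiquitin ligase for degradation, and oxidants or electrophiles that modify KEAP1 let NRF2 accumulate. Its targets make glutathione, keep thioredoxin reduced, and clear quinones, heme and lipid peroxidation products. Ionizing radiation, the injury studied with these organoids, forms reactive oxygen species, although the samples described here were not irradiated.

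The list held 32011 distinct regions, of which 55 lay at, in or within 50 kb of the 10 genes. A region was counted at a 5′ end when its midpoint lay within 1 kb of the outermost 5′ end of the gene. By this rule the 5′ ends of 6 of the 10 genes carried a region, as did those of 38.3% of all protein-coding genes. These were *Nfe2l2*, *Nqo1*, *Hmox1*, *Gclm*, *Gsta4* and *Srxn1*. *Slc7a11* and *Txnrd1* had a region at another start site that RefSeq lists inside the gene, so that 8 of 10 genes had a region at any annotated start, against 41.8% of all protein-coding genes. *Keap1* and *Gclc* had none. RefSeq start sites were not at hand for *Gclc*, *Hmox1* and *Gsta4*, so only their outermost 5′ end was examined. Inside the genes, away from the 5′ end, 12 regions lay in 4 genes, *Nfe2l2*, *Nqo1*, *Txnrd1* and *Slc7a11*. Such a region was held by 25.6% of all protein-coding genes. The other 36 regions lay outside, and all 10 genes had at least 1 of them, as did 71.0% of protein-coding genes. With the 3 classes joined, 78.5% of protein-coding genes had a region. All protein-coding genes include many that are silent in epithelium, and the 10 genes were not set against genes of like expression. In bulk samples, a region open in few cells and one weakly open in all of them cannot be told apart. Among the cell type markers, 9 of 12 epithelial duct and stem/progenitor genes carried one at the 5′ end, compared with 0 of 4 endothelial, 0 of 4 fibroblast and 1 of 4 leukocyte genes, and *Krt7*, *Krt18* and *Trp63* were the epithelial genes without one.

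**Figure D1:**
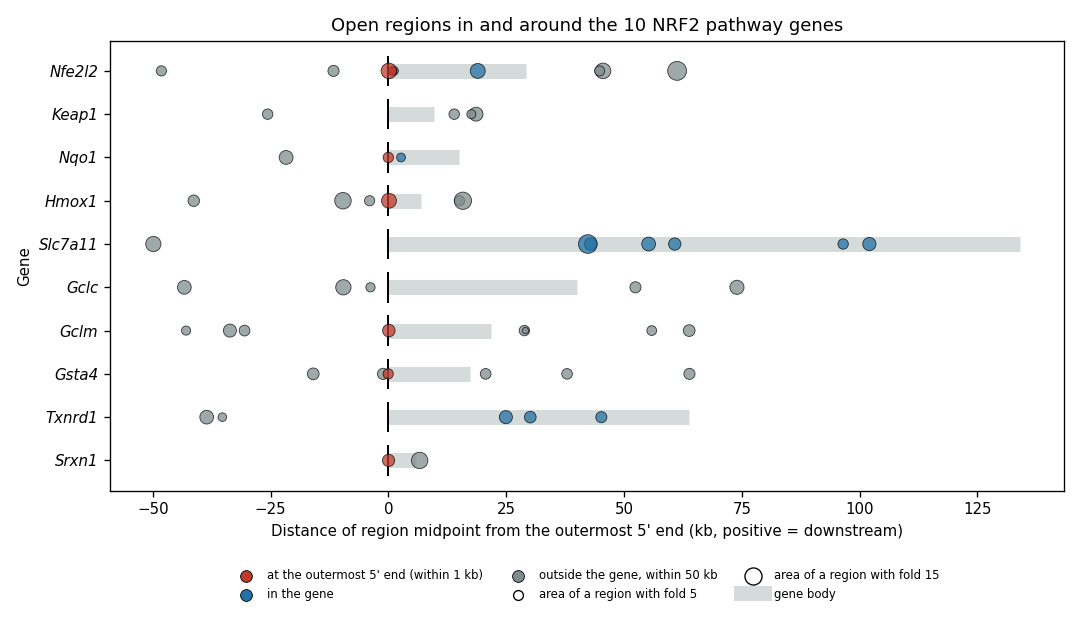
Distinct open regions of the 10 genes, placed by the distance of their midpoint from the outermost 5′ end (kb, positive downstream); grey bars are gene bodies, colour gives the class of the region and circle area is proportional to the fold over the local background. Red circles, at the outermost 5′ end, are present for 6 genes, while *Slc7a11* holds 6 blue circles within the gene and *Keap1* and *Gclc* hold grey circles outside the gene only.

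The promoters of these genes are shown first, because the regions at the starts fall on them. RefSeq promoter sequences of GRCm38.p6 were at hand for 7 of the 10 genes, with 3 start sites for *Txnrd1*; *Hmox1*, *Gclc* and *Gsta4* had no entry. Each of the following 6 sequences is the 250 bases before the start, read 5′ to 3′ on the strand of the gene. They were chosen because a deposited region overlaps every one of them. Over the whole table, 27.3% of the promoters overlapped a region, and of the 9 entries of these genes 6 did; that of *Keap1* and the other pair of *Txnrd1* did not. Capitals mark the antioxidant response element core TGACNNNGC, on either strand, in the first 3. In *Srxn1* they mark the looser core TGANNNNGC and the AP-1 form TGANTCA, which overlap where TGAGTCA runs into GC. In *Slc7a11* they mark TGATGCAAA, a sequence of the kind bound by ATF4 with C/EBP factors in amino acid response elements, and in *Nqo1* the TATA box TATAAA and, on either strand, the GC box GGGCGG.
Nfe2l2, chr2:75704664-75704913, minus strand: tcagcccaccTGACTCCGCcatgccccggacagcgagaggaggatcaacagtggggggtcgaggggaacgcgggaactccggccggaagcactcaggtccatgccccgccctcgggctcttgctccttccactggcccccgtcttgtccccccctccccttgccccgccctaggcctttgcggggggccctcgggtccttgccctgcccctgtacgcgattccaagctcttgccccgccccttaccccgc
Gclm, chr3:122245307-122245556, plus strand: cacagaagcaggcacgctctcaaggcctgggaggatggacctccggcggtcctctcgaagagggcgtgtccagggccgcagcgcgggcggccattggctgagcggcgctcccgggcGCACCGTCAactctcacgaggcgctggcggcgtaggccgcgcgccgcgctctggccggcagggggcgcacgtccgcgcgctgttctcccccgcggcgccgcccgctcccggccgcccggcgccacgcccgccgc
Txnrd1, chr10:82858956-82859205, plus strand, the second listed start: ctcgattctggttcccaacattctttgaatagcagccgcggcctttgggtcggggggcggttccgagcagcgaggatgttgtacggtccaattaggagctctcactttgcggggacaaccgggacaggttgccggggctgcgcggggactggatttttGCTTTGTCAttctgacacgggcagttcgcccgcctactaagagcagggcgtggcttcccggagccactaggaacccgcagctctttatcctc
Srxn1, chr2:152105274-152105523, plus strand: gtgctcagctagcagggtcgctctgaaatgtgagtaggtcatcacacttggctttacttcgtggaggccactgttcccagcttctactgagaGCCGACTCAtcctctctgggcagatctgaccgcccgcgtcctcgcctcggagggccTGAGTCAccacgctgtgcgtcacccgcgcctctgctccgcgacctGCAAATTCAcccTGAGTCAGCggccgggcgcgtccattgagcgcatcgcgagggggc
Slc7a11, chr3:50443614-50443863, minus strand: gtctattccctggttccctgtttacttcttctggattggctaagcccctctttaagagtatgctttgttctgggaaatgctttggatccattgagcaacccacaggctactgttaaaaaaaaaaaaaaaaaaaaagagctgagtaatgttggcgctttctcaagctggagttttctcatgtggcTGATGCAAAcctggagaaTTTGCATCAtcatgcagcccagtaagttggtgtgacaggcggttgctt
Nqo1, chr8:107403206-107403455, minus strand: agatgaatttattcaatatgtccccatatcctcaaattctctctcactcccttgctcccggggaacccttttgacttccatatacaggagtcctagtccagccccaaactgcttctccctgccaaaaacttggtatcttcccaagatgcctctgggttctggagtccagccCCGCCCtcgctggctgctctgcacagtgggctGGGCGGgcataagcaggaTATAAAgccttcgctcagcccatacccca

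Over the full promoter entries, which run on for 50 bases past the start, TGACNNNGC was found in 4 of the 9 entries, in *Nfe2l2*, *Gclm*, *Srxn1* and the second start of *Txnrd1*. It was present in 12.4% of all 32851 RefSeq promoters. The match of *Gclm*, GCACCGTCA on the gene strand, lay from -134 to -126 and 10 bp from a summit. That of *Txnrd1*, GCTTTGTCA from -92 to -84, was also the only one followed by an A (TGACNNNGC plus A, read on the strand of the match), a longer form that 3.04% of all promoters held. The match of *Nfe2l2*, TGACTCCGC from -240 to -232, began 8 bp beyond the edge of the region at that promoter. That of *Srxn1* lay after the start, from 29 to 37, and is not part of the printed stretch. The looser core TGANNNNGC, which 41.3% of promoters held, was found in 7 of 9 entries, in 6 of the 7 genes, and 4 times in *Srxn1*, the TGACNNNGC matches included. Its 3 matches in *Slc7a11* include 1 that overlaps the motif described next. *Srxn1* was the only one of the 7 genes with TGANTCA, which it held at -102 to -96 and at -45 to -39, against 7.81% of all promoters with any match. TGATGCAAA occurred in *Slc7a11* on both strands, from -66 to -58 and, as TTTGCATCA, from -48 to -40, and in 0.271% of all promoters. This last motif was added after the sequence had been seen. *Nqo1* and the outermost start of *Txnrd1* held neither antioxidant response core in this window. GGGCGG was found in 6 of 9 entries and in 35.7% of promoters, CCAAT in 3 of 9 and in 37.4%, and TATAAA in *Nqo1* alone, from -29 to -24, and in 13.6%. Promoters that overlap a region, as 6 of the 9 entries do, differed from the whole table in these shares. Among them GGGCGG was present in 68.3%, CCAAT in 43.2%, TATAAA in 5.91% and TGACNNNGC in 15.4%. TGANNNNGC was present in 44.6%, TGANTCA in 5.67%, TGACNNNGC plus A in 2.57% and TGATGCAAA in 0.123%. The counts out of 9 include entries without a region, so they are not a like measure to these shares. Of the 6 entries that overlap a region, all but that of *Slc7a11* held GGGCGG. The remaining entry with GGGCGG was that of *Keap1*, which overlaps none. All 4 entries with TGACNNNGC were among those 6. The entries differed in base composition, from 44.7% G or C and 4 CG dinucleotides in *Slc7a11* to 79.7% and 48 in *Gclm*, and all promoters that overlap a region had medians of 61.7% and 22. These matches are letters in a sequence, and binding of any factor was not measured.

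*Nfe2l2* had the strongest region at a 5′ end among the 10 genes. The gene lies on chromosome 2 from 75675513 to 75704663, on the minus strand. The region at its start, chr2:75704255-75704887, was 633 bp wide, had an IDR score of 1000, the highest the list gives, and a fold of 12.4 over the local background at its strongest summit, which lay 40 bp into the gene. This fold was higher than that of 83.4% of the protein-coding genes with a region at the 5′ end. Behind it lay weaker regions, with a fold of 3.56 at 846 bp into the gene and a fold of 4.25 at 1.15 kb. The other region within the gene, chr2:75685455-75685947, was 19.0 kb from the start and had a fold of 11.4. Upstream, regions at 11.7 kb (6.38-fold) and 48.2 kb (5.38-fold) had *Nfe2l2* as their nearest coding 5′ end. With 9 regions in all, *Nfe2l2* had 6.97 regions per 100 kb of the gene and the 50 kb on each side, more than 96.5% of protein-coding genes, whose median was 1.93. Of those 9, however, 2 lay within 1 kb of the start of *Hnrnpa3*, an RNA-binding protein gene, and the strongest of all, with a fold of 18.3 at chr2:75643124-75643650, lay nearer to the predicted gene *Gm50595*.

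*Keap1*, which encodes the adaptor that targets NRF2 for degradation, had no region on the gene. It covers chromosome 9 from 21229730 to 21239332 on the minus strand, and no region was listed at its start, within it or closer than 14.0 kb to its 5′ end. Of its 4 regions, 3 lay beyond the 3′ end, between 14.0 and 18.6 kb from the start, with folds of 5.66, 4.21 and 9.95. The strongest was chr9:21220472-21220980. The fourth, 25.6 kb upstream, lay 239 bp from the 5′ end of *Atg4d*, an autophagy protease gene. The promoter entry of *Keap1* held GGGCGG and 13 CG dinucleotides. A start without a listed region is not shown to be closed, since the depth of the libraries is unknown.

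*Nqo1* and *Hmox1*, which detoxify quinones and break down heme, both had a region on the start, of unequal strength. At *Nqo1*, on chromosome 8 from 107388225 to 107403205, the region chr8:107403021-107403439 had 3 summits with folds of 4.15, 5.57 and 4.64, at 152 bp and 15 bp before the start and 127 bp after it. Its IDR score was 696, and its fold was higher than that of 13.0% of genes with a region at the 5′ end. A weaker region with a fold of 3.98 lay 2.68 kb into the gene, and the remaining region, 21.7 kb upstream, lay 121 bp from the 5′ end of *Nob1*, a ribosome assembly gene. At *Hmox1*, on chromosome 8 from 75093618 to 75100593 on the plus strand, the region chr8:75093452-75094023 had an IDR score of 1000 and a fold of 11.5 at a summit 20 bp into the gene, a fold above that of 77.8% of genes. A pair of regions preceded it. The nearer, chr8:75089442-75089813, lay 3.99 kb upstream with a fold of 5.36, and the farther, chr8:75083809-75084129, lay 9.65 kb upstream with a fold of 14.0, above 95.4% of all regions in the list. Mouse *Hmox1* is known for a proximal and a distal upstream enhancer that carry antioxidant response elements, but the sequence of these regions was not analysed here. The strongest region near *Hmox1*, with a fold of 15.4, lay downstream and 44 bp from the 5′ end of *Mcm5*, a DNA replication gene, where a weaker one accompanied it. The remaining region, 41.3 kb upstream with a fold of 6.78, lay in *Tom1*.

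The 4 genes of glutathione metabolism differed in where their regions lay. *Slc7a11* encodes the cystine importer xCT, and the outermost 5′ end of the gene, at 50499087 on chromosome 3, had no region within 1 kb. The start in the RefSeq promoter table, at 50443613, lies within the gene, and there the region chr3:50443379-50444332, the widest of the 55 at 954 bp, had 5 summits. The highest had folds of 9.82, at 10 bp after the start, and 9.57, at 181 bp before it, so that they flank the paired TGATGCAAA matches. Measured from the same start, a region with a single summit and a fold of 18.0, chr3:50456528-50456997, lay 13.1 kb upstream and exceeded 99.2% of all regions. A further region with a fold of 8.09 lay beside it at 12.6 kb, and 3 regions with folds from 5.56 to 8.99 lay 5.30 to 46.6 kb downstream. The only region outside the gene, 49.9 kb upstream of the outermost 5′ end, had a fold of 11.9. All 7 regions of *Slc7a11* had it as their nearest coding 5′ end. The gene is 134 kb long. With the 50 kb on each side it had 2.99 regions per 100 kb, more than 67.3% of protein-coding genes.

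*Gclc* and *Gclm* encode the catalytic and the modifier subunit of glutamate-cysteine ligase, which catalyses the first step of glutathione synthesis. *Gclm*, on chromosome 3 from 122245487 to 122267215, had a region at its start, chr3:122245268-122245879, with a fold of 8.08 at a summit 144 bp before the RefSeq start and 4.87 at a second one 12 bp before it. The midpoint of this region was also within 1 kb of the 5′ end of *Gm46822*, a predicted gene. The list does not tell which of them it belongs to. *Gclc*, on chromosome 9 from 77754535 to 77794489 and on the plus strand, had neither a region at the outermost 5′ end nor one in the gene. Its nearest region, chr9:77750517-77750933, lay 3.81 kb upstream with a fold of 4.40, and the next, chr9:77744734-77745213, lay 9.56 kb upstream with a fold of 12.0. Another lay 43.3 kb upstream (9.71-fold), and 2 lay 52.4 and 74.0 kb downstream of the start (6.38- and 10.3-fold). No other coding 5′ end was nearer to any of these 5 regions. The modifier subunit gene thus had a region on its start and 7 outside the gene, of which 3 lay 30.5 to 43.0 kb upstream with folds from 4.26 to 8.75. Those 3 lay inside *Gm46822*, and the strongest of them was also within 1 kb of the 5′ end of *Gm40137*, another predicted gene. The other 4, downstream, were nearer to *Dnttip2*, a nucleolar protein gene, and included the weakest of the 55 regions, with a fold of 2.08 and a −log10 q-value of 0.669. The catalytic subunit gene had outside regions alone. The listed fold was above 90.1% of all regions for the *Gclc* region at 9.56 kb and above 62.7% for the *Gclm* start. *Gsta4*, a glutathione transferase that acts on the lipid peroxidation product hydroxynonenal, had the lowest fold at a start among the 6 genes. Its region, chr9:78191783-78192051, had 1 summit with a fold of 5.42 and an IDR score of 668. A region with a higher fold and score, 6.48 and 1000, lay just outside the 1 kb limit, 1.13 kb upstream. Its 6 regions spanned a narrow range of folds, from 5.42 to 7.12. The strongest, 16.0 kb upstream, lay in *C920006O11Rik* and within 1 kb of the 5′ ends of that gene and of *Rn7sk*. Another of the 6 lay 786 bp from the 5′ end of the related gene *Gsta1*. How the authors placed reads that match several members of this family is not given in the sources used here.

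*Txnrd1* and *Srxn1* serve the thioredoxin system, as the cytosolic thioredoxin reductase and as sulfiredoxin, which rescues overoxidized peroxiredoxins. *Txnrd1* covers chromosome 10 from 82833951 to 82897724, and the promoter table lists 3 starts for it. No region overlapped the promoter entry of the outermost start or that of the innermost. The second start, at 82859206, was covered by the region chr10:82858466-82859293, 828 bp wide and with an IDR score of 1000. It had 5 summits, of which those at 272 and 158 bp before this start had folds of 8.83 and 8.62. The midpoint of this region was also less than 1 kb from the start of *Gm38560*, an overlapping predicted gene, and the list does not tell which of them it belongs to. Regions with folds of 7.03 and 6.37 followed further into *Txnrd1*. All 3 regions within *Txnrd1* had *Eid3*, a gene that lies inside it, as the nearest coding 5′ end, and the 2 outside, 38.6 and 35.2 kb upstream with folds of 9.72 and 3.81, had *Nfyb*. *Srxn1*, the shortest of the 10 genes at 5.85 kb, had only 2 regions. At the start, chr2:152105309-152105793 had folds of 7.72 at a summit 83 bp before the start, between its TGAGTCA matches, and 4.49 at one 199 bp after it. The stronger of the pair, chr2:152111997-152112315, had a fold of 13.9 and lay 0.779 kb beyond the 3′ end.

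**Figure D2:**
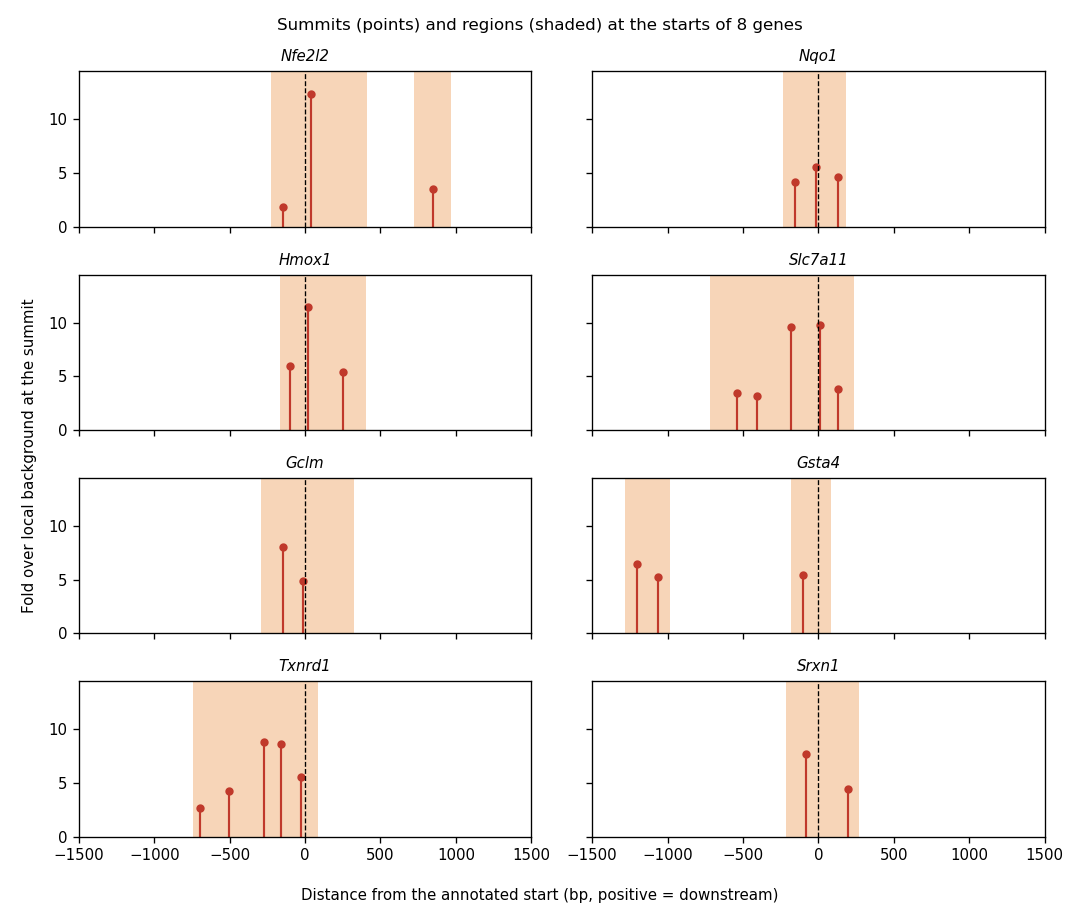
Regions (shaded) that reach within 1 kb of a start, and their summits (points), for the 8 genes with a region there. The y axis gives the fold over the local background at the summit. The x axis, drawn to 1.5 kb on each side, gives the distance in bp from the start. It is measured from the nearest start in the RefSeq promoter table, or from the outermost 5′ end for *Hmox1* and *Gsta4*. The tallest summits are those of *Nfe2l2* (12.4) and *Hmox1* (11.5), within 40 bp of the start, whereas *Slc7a11* and *Txnrd1* have 5 summits each, most of them upstream.

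Taking the strongest region at any annotated start of each gene, folds ran from 5.42 in *Gsta4* and 5.57 in *Nqo1*, through 7.72 in *Srxn1*, 8.08 in *Gclm*, 8.83 in *Txnrd1* and 9.82 in *Slc7a11*, to 11.5 in *Hmox1* and 12.4 in *Nfe2l2*. Their median was 8.45, and over the 8953 protein-coding genes with such a region it was 8.38 (quartiles 6.45 and 11.0). The 8 genes were thus spread over the range of all genes, from percentile 10.8 to 83.8. Without replicate values, the order of neighbours, such as *Gsta4* and *Nqo1* or *Srxn1* and *Gclm*, cannot be judged against an error. The number of regions per gene ran from 2 in *Srxn1* to 9 in *Nfe2l2*, with a median of 5.5 against 3 over all protein-coding genes. Per 100 kb the median was 3.61 against 1.93. Of the 36 regions outside the genes, 17 were nearer to the 5′ end of another coding gene than to that of the member, and 9 of these lay within 1 kb of it. Folds above 12.0, the 90th percentile of the list, were reached by 8 of the 55 regions, and only 1 of these, at *Nfe2l2*, lay at a start of a member.

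**Figure D3:**
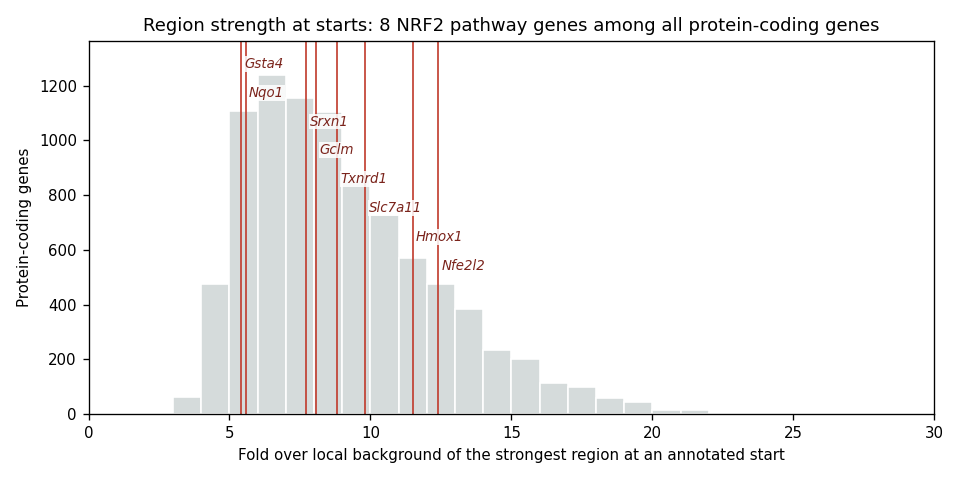
Histogram of the fold over the local background (x axis) of the strongest region within 1 kb of any annotated start, for all protein-coding genes that have one (y axis, number of genes per bin), with red lines at the 8 members. *Gsta4* (5.42) and *Nqo1* (5.57) sit below the lower quartile of 6.45, and *Hmox1* (11.5) and *Nfe2l2* (12.4) above the upper quartile of 11.0.

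A further 52 genes of the pathway, listed by role and not by their values, place these members among their partners. Of the 52, 37 (71.2%) carried a region at the outermost 5′ end, beside 38.3% of all protein-coding genes, and 41 (78.8%) at any annotated start, beside 41.8%. Every one of them had at least 1 region at the 5′ end, in the gene or within 50 kb, as did 78.5% of all protein-coding genes. Among 13 regulators, 11 carried a region at the 5′ end, with the highest folds at *Btrc* (13.4) and *Cul3* (12.1), which encode parts of the ubiquitin ligases that act on NRF2. The NRF2 relatives *Nfe2l1* (9.97) and *Nfe2* (5.43) and the repressors *Bach1* (8.73) and *Bach2* (8.75), which compete for the same elements, had one, while *Nfe2l3* and the small MAF gene *Mafg* did not. *Bach2* held 14 regions within the gene, a count that was not set against the length of the gene. All 6 genes for thioredoxin and peroxide removal carried one, with folds of 15.3 at *Txn1*, thioredoxin itself, and 11.6 at *Sod2*, the mitochondrial superoxide dismutase. Of 14 further glutathione genes, 10 had one, led by *Gpx1* (13.7), a glutathione peroxidase, and *Gsta3* (10.8), a transferase. *Slc3a2*, the heavy chain that pairs with xCT, had a fold of 8.67. *Gsr*, the glutathione reductase, had no region at a start but 4 inside the gene.

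Among the enzymes that supply NADPH, 3 of 6 carried a region there, with *Idh1* (14.9) and *Pgd* (8.68) the strongest, and *G6pdx*, *Tkt* and *Me1* had none there. For iron and heme, 3 of 5 did, with folds of 15.5 at *Blvra*, the biliverdin reductase that acts after heme oxygenase, and 11.5 at *Blvrb*. The ferritin heavy chain gene *Fth1* had a region at a start within the gene, and *Slc40a1*, the iron exporter, had none at a start. Detoxification enzymes carried one at the 5′ end in 4 of 8 cases, with *Ugdh* (8.75) and *Cbr3* (6.86) the strongest. *Cbr1* was the least covered gene of the role, with 1 region in all. The median fold of the 37 regions at 5′ ends was 7.87, and that of the 6 members with a region at the outermost 5′ end was 7.90, both below the median of 8.41 over all protein-coding genes with one. At any annotated start the members' median was 8.45 and that of the other pathway genes 7.02, beside 8.38 over all protein-coding genes, so that for the members the direction turned with the choice of start. The share of genes with a region at a start was above that of all protein-coding genes by both counts. None of these differences was tested, because the genes were chosen with earlier results of these data known.

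**Figure D4:**
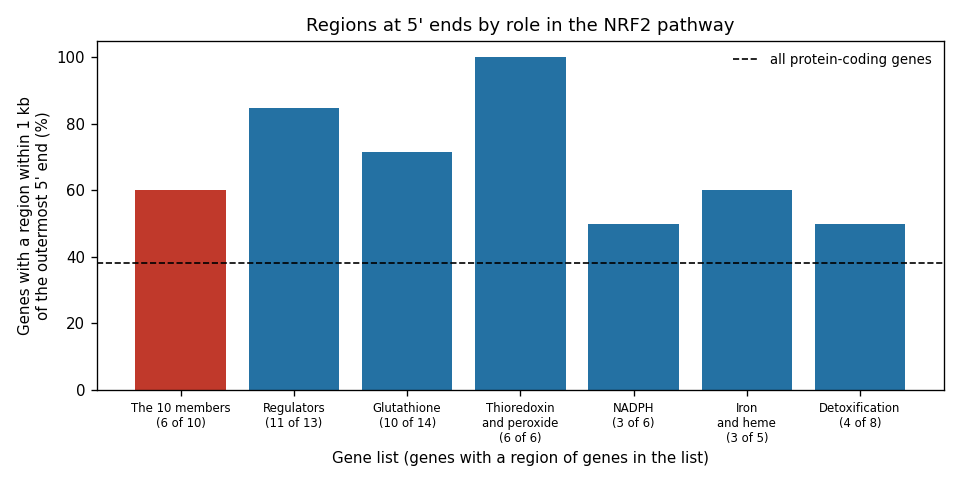
Share of genes (y axis, percent) with a region within 1 kb of the outermost 5′ end, for the 10 members (red) and for 52 further pathway genes by role (blue); numbers under each bar are genes with a region of genes in the list, and the dashed line is the 38.3% of all protein-coding genes. All bars stand above the line, from 3 of 6 and 4 of 8 genes at the lowest to 6 of 6 for thioredoxin and peroxide removal.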

How the data were processed

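Bulk ATAC-seq was measured on 4 samples of mSGOs. The authors sequenced 75 bp paired-end reads and, per the paper's methods, ran the ENCODE pipeline for alignment and peak calling, with all organoid samples behind a consensus list. The deposited list has 69545 lines and 32011 distinct regions, and the consensus size given in the paper is near neither, so whether it is that list, and pools all 4 samples, is not known. Versions and filters are not given in the sources used here. For each summit the deposited file gives an IDR score from 540 to 1000, the fold, a ratio to local background signal, and both p-value and q-value as −log10, all from the authors' peak caller. No column belongs to a single sample, so depth and replicate error are unknown.

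Lines sharing start and end were joined into regions, keeping the values of the summit with the highest −log10 p-value. The submitters' processing notes name GRCm39. Regions ran past the GRCm39 end of 8 of 21 chromosomes, and a region lay within 1 kb of 38.3% of GRCm38.p6 but 5.04% of GRCm39 coding 5′ ends, so the list was read as GRCm38. Strand came from the RefSeq promoter table for 17491 coding genes and, by name, from GENCODE M39 for 3945; 447 without a strand were left out. Regions were assigned by midpoint, in the order 5′ end, gene, flank. Promoter motifs were searched as letters on both strands.

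All 10 members are named. Of the other pathway genes, the rule names the 2 with the highest fold at the 5′ end per role and those with no region at all, of which there were 0; further names, the TGATGCAAA motif and the count at any annotated start were chosen after values were seen. The members and lists were chosen with earlier results of these data known. No test was run, and counts are set beside those of all protein-coding genes. Counting was tested on simulated data. Python 3.11.15, numpy 2.4.6, pandas 2.3.3 and matplotlib 3.10.9 were used.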

Additional observations from a re-analysis of the deposited data

How the results depend on the processing

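Leaving out a sample was not possible, since the list holds no column of any sample. No paired analysis was possible because the 4 samples carry no values in it. The number of members with a region at the 5′ end, 6, stayed within 1.5 times under all 8 alternatives: it was 4 among the 16006 regions with the lowest q-values and at an IDR score of 1000, without *Nqo1* and *Gsta4*, and 8 at any annotated start, an alternative chosen after the data were examined. The count of 4 lies on the edge of this range, which is wide for so few genes. In the sets that gave 4, the share of all protein-coding genes also fell, from 38.3% to 25.9% and 24.0%. The median fold of the members, 7.90 beside 8.41 over all protein-coding genes, was 9.79 beside 9.94 in the first of those sets, 9.79 beside 10.2 in the second, 9.79 beside 8.37 at either end of the gene and 8.45 beside 8.38 at any start, so that the order of members and background turned under the last 2. For the other pathway genes it turned within 500 bp (8.67 beside 8.44).

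Shares of all protein-coding genes were 25.9% among those 16006, 24.0% at an IDR score of 1000, 35.3% within 500 bp and 41.4% within 2 kb. They were 39.1% by overlap, 39.9% at either end, 41.8% at any start and 38.7% by summits. All but the share by summits lay outside the Wilson interval of the 38.3%. That interval describes a sampling of genes, while these are recounts of the same genes under other rules, so it cannot judge the change. The other pathway genes with a region fell from 37 to 22 in both stricter sets. The 12 regions inside members became 29 by summits and 7 at an IDR score of 1000. The 36 outside became 79 by summits, 14 in either stricter set, 21 within 25 kb, 75 within 100 kb and 19 when only those nearest to the member's own 5′ end were kept. With the longer element, TGACNNNGC plus A, 1 member had a promoter match instead of 4. These sets are larger or smaller by construction. Since depth is unknown, an unlisted region may be an undetected one.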
